A study of Mus musculus with 12 samples.

Results

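Metformin, a biguanide drug known to inhibit respiratory complex I and to engage the energy sensor AMPK, was given to mice whose blood-forming cells were mutant or wild type for Dnmt3a, a de novo DNA methyltransferase. The interaction of genotype and metformin asks, gene by gene, whether the metformin effect (metformin minus vehicle) in mutant cells differs from that in wild-type cells, and all 12 libraries of the series enter it. Each of the 4 groups held 3 libraries of sorted, uncultured Lin-cKit+ bone marrow cells, the gate that holds haematopoietic stem and progenitor cells (HSPCs). RH cells came from a C57BL/6 cross in which a floxed allele carries the R878H change in Dnmt3a on 1 allele and Mx1-cre, a recombinase driven by an interferon-inducible promoter that is active in haematopoietic and other cells, is present. WT cells came from Dnmt3a+/+ mice crossed to the same Mx1-cre, so both genotypes carried the transgene. The groups were RH MET, RH VEH, WT MET and WT VEH, where MET is metformin and VEH is vehicle, each given for 1 month in vivo in a competition experiment. Per the labels each treatment group had 2 animals, and which animal a library came from is not stated; p-values therefore measure the spread between libraries, which may be partly technical. The sources used here give neither the age of the animals nor how the Mx1 promoter was induced.

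Changes at the residue that corresponds to mouse R878H are the most frequent DNMT3A changes of human clonal haematopoiesis and acute myeloid leukaemia. Complex I is the first enzyme of the mitochondrial electron transport chain and AMPK restrains the growth kinase mTOR, so genes of respiration, ribosomes and AMPK or mTOR targets are the ones a metformin experiment would look at first. In a gate that excludes lineage-positive cells, transcripts of granulocytes, T cells or natural killer (NK) cells can also mark admixed cells.

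Total counts per library ran from 13359583 to 21938003. Mitochondrial genome reads made up a share that stood apart in 2 libraries, at 40.8% in RH VEH 2 and 33.3% in WT MET 2, against 1.57% to 4.32% in the other 10 libraries. The first is a vehicle library and the second a metformin library, so both lower the interaction of that share, which was −24.3 percentage points with all 12 libraries and −1.69 without the 2. Results are therefore given with and without both. The 12 libraries also fall into round 1 (RH MET 1 and 2, RH VEH 1, WT MET 1, WT VEH 1 and 2), whose columns are also in a smaller deposited table, and round 2 (RH MET 3, RH VEH 2 and 3, WT MET 2 and 3, WT VEH 3), whose columns are not. Round 1 alone thus held 1 RH VEH and 1 WT MET library, and round 2 alone 1 RH MET and 1 WT VEH library. Values and calls from a single round rest on those libraries and are not replicated in these groups. Sorted-cell markers were present in every library, with Kit at 118 to 200 CPM (counts scaled to library size with TMM factors), Myb at 204 to 338 CPM and Cd34 at 53.3 to 158 CPM. Of the markers the gate should remove, Cd3e of T cells stood at 0.378 to 3.08 CPM, Ly6g of granulocytes at 1.93 to 14 CPM and Itgam of myeloid cells at 2.63 to 25.7 CPM. The 8 lineage markers together summed to 288 to 465 CPM per library. Dnmt3a itself stood at 45.3, 49.2 and 52.2 CPM in RH MET and 39.7, 43.5 and 58.2 in RH VEH. WT levels were 40.5, 59.9 and 44.3 in WT MET and 41.8, 43.2 and 57.4 in WT VEH, and its interaction of 0.25 ± 0.232 (log2, SE, n = 3 libraries per group) did not pass the threshold given below.

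No gene passed the threshold of a Benjamini-Hochberg adjusted p under 0.05 for the interaction in edgeR's quasi-likelihood test across 15003 genes (0% called, smallest adjusted p = 0.648), and none did in DESeq2. At an unadjusted p under 0.05 there were 932 genes in edgeR (6.21%, where 5% would be 750.2) and 1215 in DESeq2 (8.10%). Of the 932, 367 had a higher metformin effect in RH than in WT (2.45% of genes tested) and 565 a lower one (3.77%). Neither metformin effect on its own gave a call, with 0 genes in RH and 0 in WT in edgeR. At an unadjusted p under 0.05 there were 364 genes in RH (2.43%, and 530 or 3.53% in DESeq2) and 604 in WT (4.03%, and 767 or 5.11% in DESeq2). DESeq2 called 1 gene in WT, Rgs1 (0.00667%). The median standard error of an interaction was 0.366 on the log2 scale, against 0.251 for the effect in RH and 0.252 for that in WT. Without RH VEH 2 and WT MET 2, 743 genes had an unadjusted p under 0.05 (4.95%), 452 of them among the 932, and 1 gene, Gapdh, was called (0.00667%).

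The 2 metformin effects pointed in opposite directions in 9929 genes (66.2%). Across genes, which are not independent replicates and share the 12 libraries, the correlation of the effect in RH with the effect in WT was r = −0.33. Without RH VEH 2 and WT MET 2 the opposite-sign share was 56.8% and r was −0.07. The interaction estimated in round 1 alone and in round 2 alone, which share no library, had the same sign in 62.3% of genes, with r = 0.22 across genes, and in 57.1% with r = 0.09 when the 2 libraries were left out of round 2, where 1 library per group then remains. In only 31 genes did every RH MET library lie above every RH VEH library while every WT MET library lay below every WT VEH library, and in another 31 the reverse held (0.207% of genes each). The first set held G6pdx (the entry enzyme of the pentose phosphate pathway) and Hif3a. The second held Klrk1, Gimap1 and Xlr4a. These 5 were chosen for naming after their values were seen. With 3 libraries per group, some genes would separate in this way with no metformin effect. Their share was not computed, so the 2 sets are given as description only and are not read as a response to metformin.

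**Figure D1:**
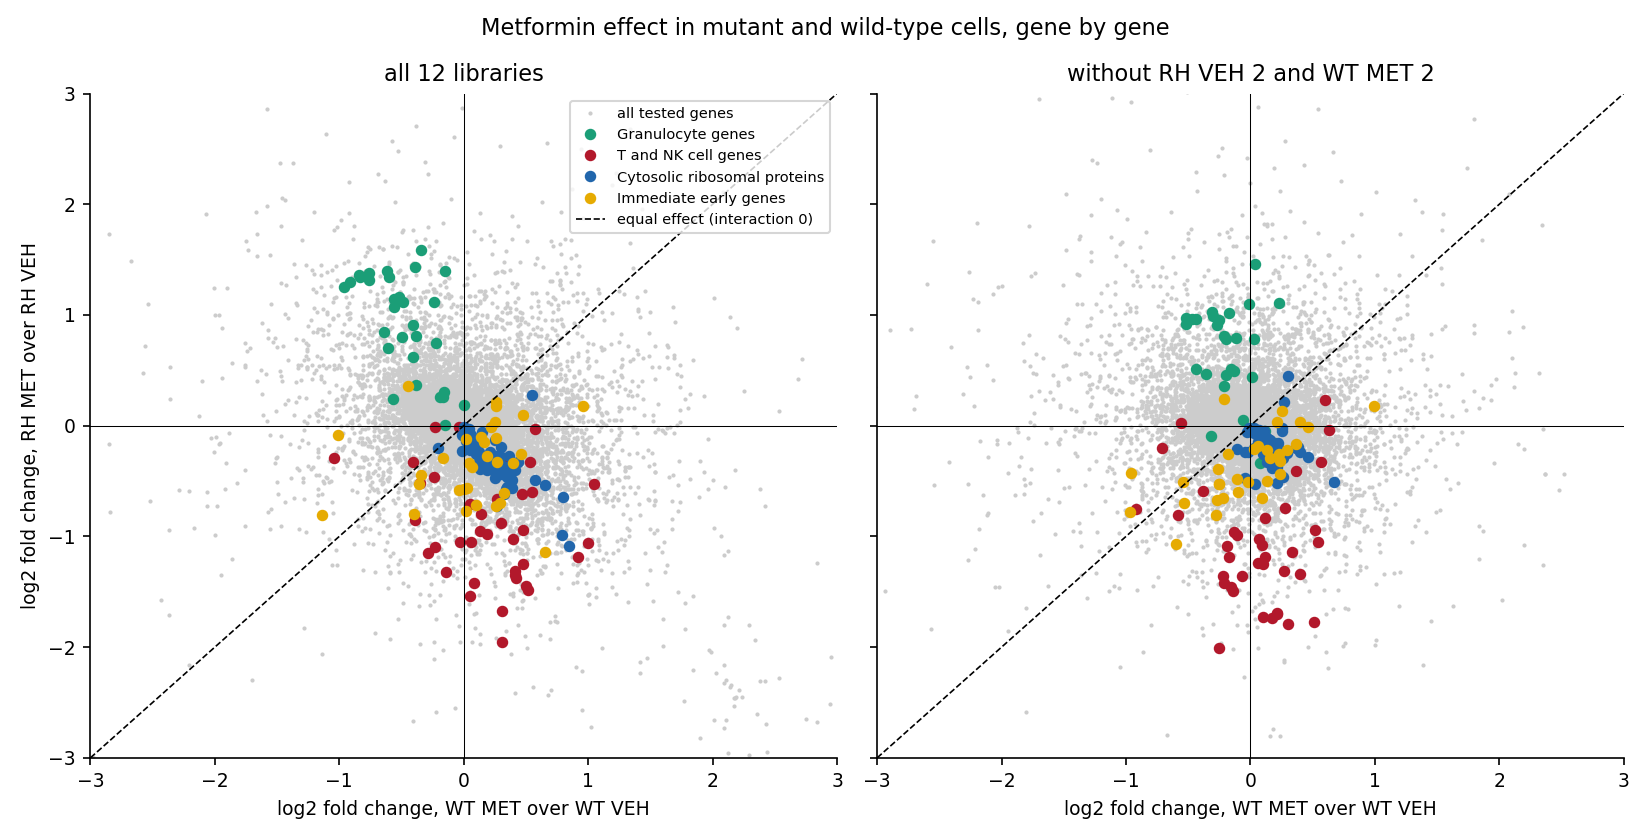
The log2 fold change of MET over VEH in RH cells (vertical axis) is set against that in WT cells (horizontal axis) for each tested gene, with all 12 libraries on the left and without RH VEH 2 and WT MET 2 on the right; axes run from −3 to 3, and 41 and 29 genes lie outside them. Genes below the dashed line had a negative interaction: T and NK cell genes and ribosomal protein genes lie mostly below it and granulocyte genes above it.

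Gapdh, a glycolytic enzyme, had the largest negative interaction among the genes named by rule outside the mitochondrial genome. It stood at 17.3, 21 and 14.1 CPM in RH MET and 172, 18.3 and 68.1 CPM in RH VEH. In wild-type cells it was 17.9, 20.3 and 13.9 CPM in WT MET and 13.2, 14.4 and 13.4 CPM in WT VEH. Only RH VEH 1 and RH VEH 3 were high, and RH VEH 2 lay within the range of RH MET. The interaction was −2.92 ± 0.762 (log2, SE, edgeR adjusted p = 0.648), and −3.04 ± 0.328 (adjusted p = 0.0165) without RH VEH 2 and WT MET 2. Without RH VEH 1 it was −1.84 (adjusted p = 0.882). Gapdh has many processed pseudogenes, and the sources used here do not say how multiply mapped reads were counted, so its level is uncertain. Of 21 tested glycolysis genes, Gapdh included, 13 were higher and 8 lower, with a median of 0.13. Slc2a3, a glucose transporter, had 0.63 ± 0.25 and Hk2, a hexokinase, 0.69 ± 0.283.

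**Figure D2:**
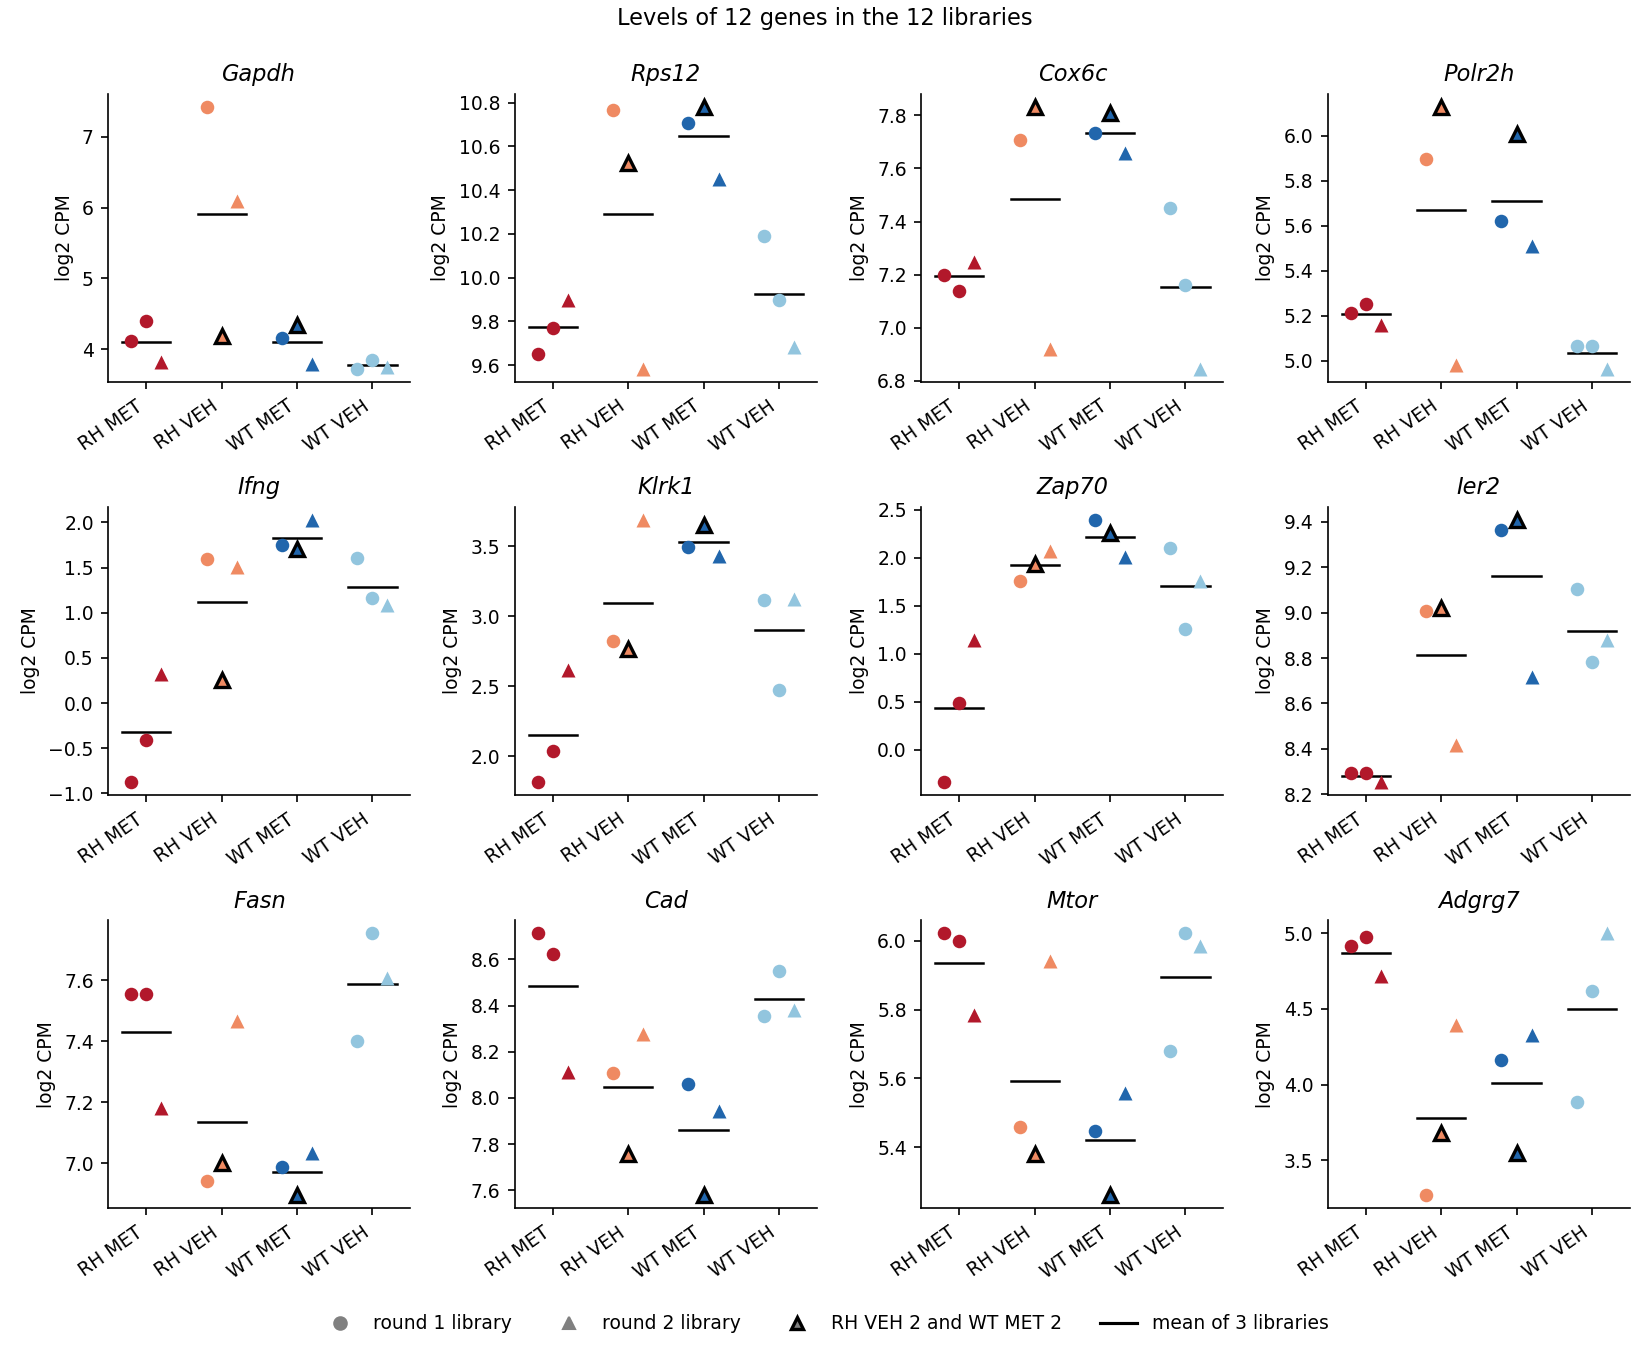
Normalised levels (log2 CPM) of 12 named genes in the 12 libraries, by group, with round 1 libraries as circles, round 2 libraries as triangles, RH VEH 2 and WT MET 2 outlined in black and the mean of 3 libraries as a line. Ifng, Klrk1 and Zap70 had their lowest mean in RH MET, while Fasn, Cad and Mtor were lower in WT MET than in WT VEH in every library.

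Genes of T and NK cells had a negative list median with all 12 libraries, without RH VEH 2 and WT MET 2 and in each round. Of 38 tested members, 34 had a lower and 4 a higher metformin effect in RH than in WT; 13 had an unadjusted p under 0.05, none passed the adjusted threshold, and the list median was −1.13 (log2), beside −0.02 over all genes tested, of which 48.3% were above 0 and 3.77% lower at an unadjusted p under 0.05. The median was −1.19 without RH VEH 2 and WT MET 2, −1.40 in round 1, −0.91 in round 2, −1.01 in round 2 without those libraries, and between −1.56 and −0.90 with any 1 library left out. The median effect was −0.96 in RH and 0.28 in WT. The summed level of the list was 137, 143 and 241 CPM in RH MET and 272, 260 and 323 CPM in RH VEH. The WT libraries held 285, 372 and 305 CPM in WT MET and 293, 197 and 259 CPM in WT VEH. In these sums RH MET lay below RH VEH in every library, and the 2 WT groups overlapped. In mean log2 CPM of the members the RH groups overlapped too, with RH MET 3 at 1.75 and RH VEH 2 at 1.68. In bulk samples fewer cells of a type and less RNA per cell cannot be told apart. All gene lists here were chosen with earlier results of these data known, and the members of a list share the same libraries. Counts of members beside the shares of all genes, here and below, are therefore description and not separate support.

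Among the T and NK members, Ifng, which encodes interferon gamma, stood at 0.545, 0.755 and 1.25 CPM in RH MET and 3.03, 1.19 and 2.85 CPM in RH VEH. In WT the level was 3.36, 3.25 and 4.08 CPM in WT MET and 3.04, 2.24 and 2.13 CPM in WT VEH. At this level 1 CPM is 8.37 to 24.8 reads, so the counts behind it are small. RH MET and RH VEH overlapped only through RH MET 3 and RH VEH 2, and the interaction was −2.00 ± 0.611 (SE, edgeR adjusted p = 0.648). Zap70, a kinase of T cell receptor signalling, stood at 0.793, 1.4 and 2.21 CPM in RH MET, below 3.38, 3.82 and 4.18 CPM in RH VEH. In WT it stood at 5.25, 4.77 and 4.03 CPM in WT MET and 4.3, 2.39 and 3.39 CPM in WT VEH, with an interaction of −1.71 ± 0.531. Klrk1, the activating NK receptor NKG2D, stood at 3.52, 4.1 and 6.12 CPM in RH MET and 7.08, 6.81 and 12.9 CPM in RH VEH. WT levels were 11.3, 12.6 and 10.8 CPM in WT MET and 8.66, 5.56 and 8.71 CPM in WT VEH. It had no overlap in either genotype, and its interaction was −1.34 ± 0.41. Bcl11b, a T cell transcription factor, had −2.26 ± 0.696, Lck, a T cell kinase, −1.18 ± 0.436, and the antigen receptor constant genes Trbc1 and Trac −1.76 ± 0.6 and −1.97 ± 0.779. Nkg7, a cytotoxic granule gene also seen in myeloid cells, had 0.02 ± 0.356 at 34.5 to 70.8 CPM. Of the defining markers, Cd3e (−1.02 ± 0.802), Cd8a (−2.07 ± 0.813) and Klrb1c (−1.08 ± 0.497) were on the same side and Cd4 (0.23 ± 0.711) was not. No library had any of these 4 markers at 0 CPM.

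Granulocyte genes lay on the other side. All 30 tested members had a higher metformin effect in RH than in WT, with a median of 1.52; 2 had an unadjusted p under 0.05, against 2.45% of all genes on the higher side, and none passed. The median rested in part on the 2 libraries: it was 0.89 without them (25 higher, 5 lower), 0.60 in round 1, 2.46 in round 2 and 0.51 with the mitochondrial share as a covariate. Summed levels were 5700, 6540 and 9040 CPM in RH MET and 4660, 1910 and 6420 CPM in RH VEH. In wild-type cells they were 4470, 1860 and 7210 CPM in WT MET and 4400, 4320 and 9470 CPM in WT VEH. RH VEH 2 and WT MET 2 were the lowest of the 12, and in each group the round 2 libraries outside these 2 were the highest. Retnlg, a secreted neutrophil protein, stood at 67.8, 68.5 and 130 CPM in RH MET and 41.3, 35.8 and 59.5 CPM in RH VEH. The WT libraries held 50.1, 37.7 and 66.6 CPM in WT MET and 40.5, 41.3 and 127 CPM in WT VEH, with an interaction of 1.61 ± 0.484 (1.17 ± 0.346 without the 2 libraries). It was 0.98 without WT VEH 3, 0.44 in round 1 and 2.76 in round 2. Of members named after their values were seen, the late granule genes Ltf (lactoferrin) and Mmp8 had 2.16 ± 0.996 and 2.21 ± 1.03. The early granule genes Mpo, Elane and Prtn3 had 0.81 ± 0.702, 0.75 ± 0.803 and 0.16 ± 0.713. Mmp8 and Prtn3 were the extremes of the list, the standard errors were wide, and late and early genes were not compared as sets. Without the 2 libraries Mpo, Elane and Prtn3 were at 0.23, 0.11 and −0.42. For Ltf the effect was then 0.96 in RH and −0.47 in WT. Cd300lf, an inhibitory myeloid receptor, was among the 12 genes of smallest p on the higher side, at 7.59, 7.88 and 12.2 CPM in RH MET and 3.59, 2.87 and 8.9 CPM in RH VEH. In WT the level was 2.65, 3.14 and 5.53 CPM in WT MET and 2.98, 5.12 and 12.6 CPM in WT VEH (interaction 2.19 ± 0.591).

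**Figure D3:**
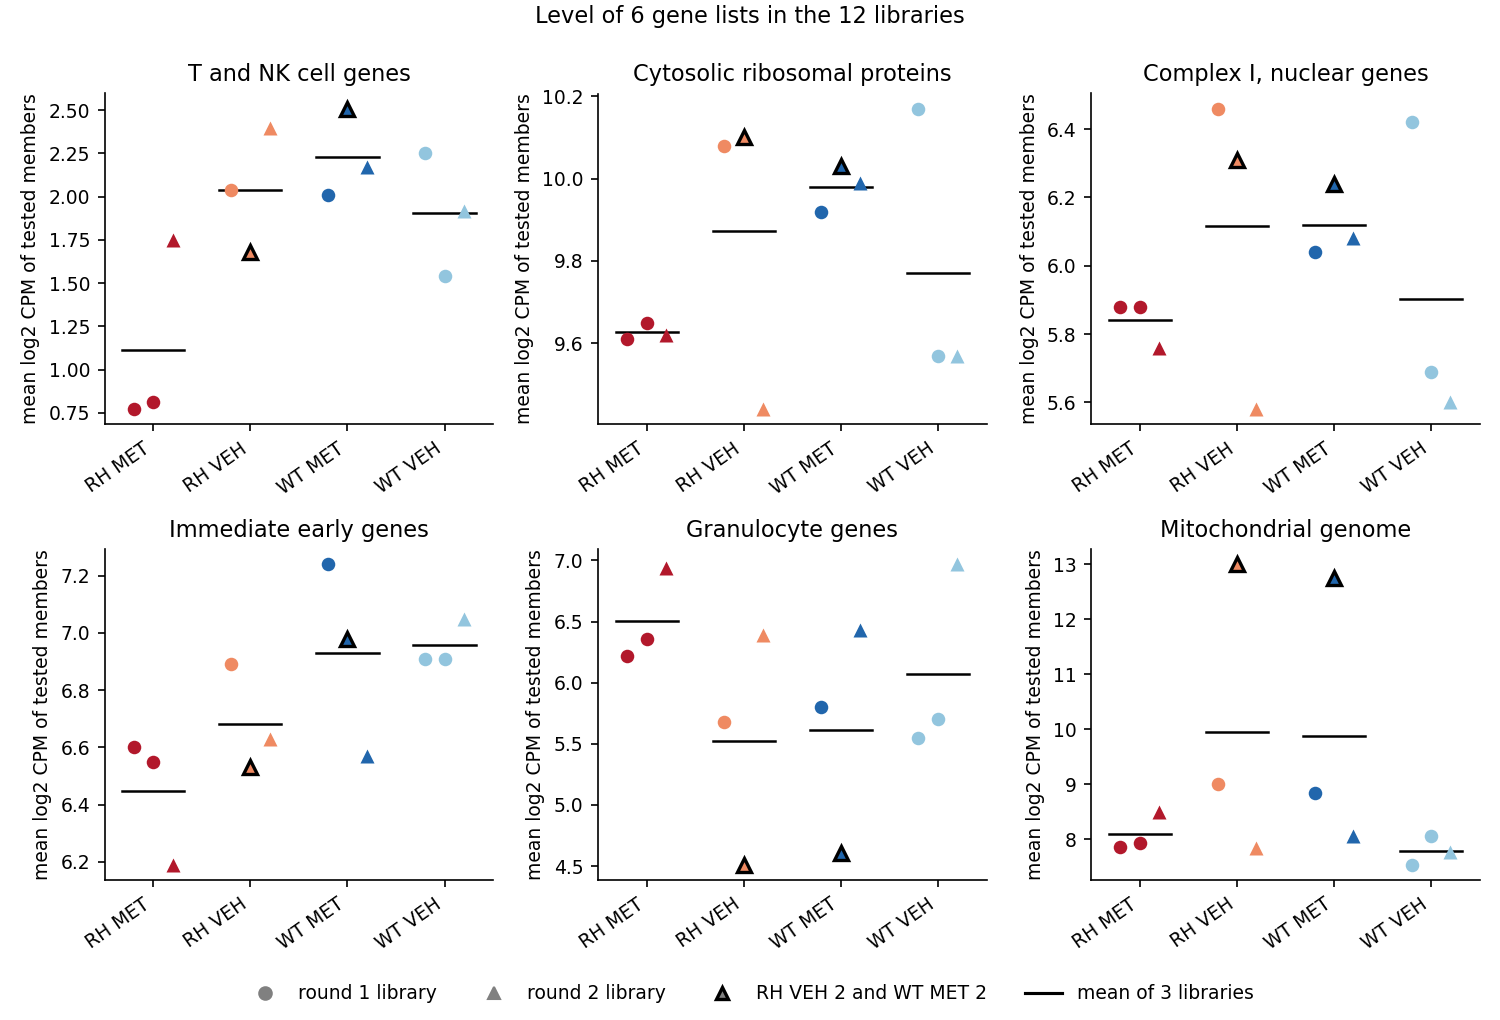
Mean log2 CPM of the tested members of 6 lists in each library, by group, with round 1 as circles, round 2 as triangles, RH VEH 2 and WT MET 2 outlined and the mean of 3 libraries as a line. T and NK cell genes were lowest in RH MET 1 and 2, granulocyte genes were lowest and mitochondrial genome genes highest in RH VEH 2 and WT MET 2, and ribosomal and complex I genes split RH VEH and WT VEH into high and low libraries.

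Nuclear genes of respiratory complex I, the target of metformin, leaned to the negative side. Of 36 tested members, 33 had a lower and 3 a higher metformin effect in RH than in WT, 9 had an unadjusted p under 0.05 (3.77% of all genes were lower at that threshold), none passed and the median was −0.65. The summed level was 2560, 2550 and 2330 CPM in RH MET and 3700, 3500 and 2080 CPM in RH VEH. In WT the sum was 2850, 3310 and 2830 CPM in WT MET and 3680, 2360 and 2110 CPM in WT VEH. The sums overlapped in both genotypes, with WT VEH 1 above all WT MET libraries and RH VEH 3 below all RH MET libraries. The median effect was −0.38 in RH and 0.27 in WT, and the interaction median was −0.43 without RH VEH 2 and WT MET 2. Ndufv2, a subunit of the NADH-binding part, stood at 123, 122 and 133 CPM in RH MET and 190, 205 and 118 CPM in RH VEH. WT levels were 176, 208 and 161 CPM in WT MET and 173, 131 and 101 CPM in WT VEH. RH VEH 3 was below all 3 RH MET libraries, and the interaction was −0.98 ± 0.324. In complexes II to V, 34 of 39 members were lower and 5 higher, with a median of −0.52 (−0.34 without the 2 libraries). Their summed level was 9570, 9310 and 8590 CPM in RH MET and 12000, 10300 and 7960 CPM in RH VEH. The WT sums were 10000, 9460 and 9970 CPM in WT MET and 12600, 9140 and 7930 CPM in WT VEH, where WT VEH 1 was again above all WT MET libraries. Cox6c, a subunit of cytochrome c oxidase, stood at 147, 141 and 152 CPM in RH MET and 209, 228 and 121 CPM in RH VEH. In wild-type cells it was 213, 224 and 202 CPM in WT MET and 175, 143 and 115 CPM in WT VEH (−1.01 ± 0.304). For this gene, unlike the sum of its list, WT MET lay above WT VEH in every library, and in RH the groups overlapped through RH VEH 3. The 12 tested genes of the mitochondrial genome were all lower, with a median of −4.64, but it was −0.97 without the 2 libraries, −1.97 in round 1 and 0.28 in round 2 without them. mt-Atp6 had 24.4, 19.3 and 25.2 CPM in RH MET and 181, 1710 and 20.2 CPM in RH VEH. The WT libraries held 45.2, 3070 and 30 CPM in WT MET and 18.7, 20.2 and 17.9 CPM in WT VEH.

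Cytosolic ribosomal protein genes showed the same lean in 57 of 58 tested members, with a median of −0.54; 10 had an unadjusted p under 0.05 (3.77% of all genes on the lower side) and none passed. The summed level was 62800, 64200 and 63800 CPM in RH MET and 85400, 86700 and 57200 CPM in RH VEH. The WT sums were 77400, 82800 and 80500 CPM in WT MET and 91900, 62100 and 60800 CPM in WT VEH. WT VEH 1 was the highest of the 12 libraries and RH VEH 3 the lowest, so the groups overlapped in both genotypes. The median was −0.36 without RH VEH 2 and WT MET 2, −0.40 in round 1, −0.57 in round 2 and −0.30 with gene length adjusted as described below. Many of these genes have processed pseudogenes, so their counts carry the same uncertainty as Gapdh. Rps12, a small-subunit protein with the smallest p among the genes named by rule, stood at 805, 872 and 955 CPM in RH MET and 1740, 1470 and 767 CPM in RH VEH. In WT the level was 1670, 1760 and 1400 CPM in WT MET and 1170, 955 and 823 CPM in WT VEH. For this gene WT MET lay above WT VEH in every library, RH VEH 3 lay below all RH MET libraries, and the interaction was −1.44 ± 0.344 (edgeR adjusted p = 0.648). Rplp2, an acidic protein of the ribosomal stalk, had −1.94 ± 0.989, and −0.73 without the 2 libraries; Rpl38, a large-subunit protein, had −1.78 ± 0.941, and −0.72 without them. Transcripts of ribosomal proteins characteristically begin with a terminal oligopyrimidine (TOP) stretch, through which mTOR controls their translation, and the starts of the first 3 members in order of p whose RefSeq start base is a C followed by 4 pyrimidines are shown, with those 5 bases in capitals after the 20 bases before the start (RefSeq, GRCm38.p6). Such a start was found in 10 of the 44 members matched to RefSeq promoters (22.7%), against 3.01% of all 27025 genes in it. A match is a description of the letters at the annotated start base.
Rplp2, chr7:141447631-141447660, plus strand: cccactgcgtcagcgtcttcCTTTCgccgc
Rpl38, chr11:114668560-114668589, plus strand: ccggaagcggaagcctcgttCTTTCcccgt
Rpl35, chr2:39005122-39005151, minus strand: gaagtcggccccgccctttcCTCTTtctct

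Immediate early genes, switched on within minutes of a stimulus, had 29 of 32 tested members lower and 3 higher, with a median of −0.39 (also −0.39 without RH VEH 2 and WT MET 2); 8 had an unadjusted p under 0.05 (3.77% of all genes on the lower side) and none passed. The rounds differed in size, with medians of −0.61 in round 1, −0.20 in round 2 and −0.04 in round 2 without the 2 libraries. Ier2 stood at 314, 314 and 305 CPM in RH MET and 514, 519 and 342 CPM in RH VEH. WT levels were 659, 680 and 421 CPM in WT MET and 550, 440 and 471 CPM in WT VEH. RH MET was below RH VEH in every library, the WT groups overlapped, and the interaction was −0.92 ± 0.284. Rgs1, a regulator of G protein signalling, stood at 152, 155 and 199 CPM in RH MET and 126, 173 and 184 CPM in RH VEH. In wild-type cells it was 290, 264 and 257 CPM in WT MET and 94.5, 136 and 168 CPM in WT VEH. Its WT MET libraries lay above all other 9, and the interaction was −0.78 ± 0.25 (−0.45 without WT MET 1). The effect was 0.18 ± 0.175 in RH and 0.96 ± 0.172 in WT, where edgeR did not call it and DESeq2 did (0.93, adjusted p = 0.0372). The cyclic AMP response element (CRE), TGACGTCA, binds CREB and ATF factors, and its core, TGACG, was found on either strand in the 250 bases before the start of 17 of 26 matched immediate early genes (65.4%), against 19.8% of all 27025 genes in the table and 3123 of the 10397 tested genes matched. It was also found in 40.6% of complex I genes, 43.2% of ribosomal genes and 21.7% of T and NK cell genes. The full element, which contains the core on both strands, was in 4 of the 26 immediate early promoters (15.4%). It was in 1.77% of all genes, 3% of tested genes, 9.38% of complex I, 6.82% of ribosomal, 4.35% of T and NK cell and 0% of granulocyte genes. The AP-1 motif TGANTCA was in 1 of the 26 (3.85%), against 7.82% of all and 5.49% of tested genes. For the CArG box it was 3 of the 26 (11.5%), against 1.62% of all and 1.39% of tested genes. The promoters of Klf2, a quiescence factor of blood cells, and Ppp1r15a, a phosphatase subunit of the stress response, are shown. They are the first 2 members in order of p that hold the core among those matched, and matches to the core are in capitals. Klf2 had an interaction of −0.74 ± 0.253 and Ppp1r15a of −0.78 ± 0.297.
Klf2, chr8:72318812-72319061, plus strand: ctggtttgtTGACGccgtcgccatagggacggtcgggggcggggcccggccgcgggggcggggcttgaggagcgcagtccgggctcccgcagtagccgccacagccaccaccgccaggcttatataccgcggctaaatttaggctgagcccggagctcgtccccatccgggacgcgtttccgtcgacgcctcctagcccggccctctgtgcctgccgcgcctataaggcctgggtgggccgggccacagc
Ppp1r15a, chr7:45526269-45526518, minus strand: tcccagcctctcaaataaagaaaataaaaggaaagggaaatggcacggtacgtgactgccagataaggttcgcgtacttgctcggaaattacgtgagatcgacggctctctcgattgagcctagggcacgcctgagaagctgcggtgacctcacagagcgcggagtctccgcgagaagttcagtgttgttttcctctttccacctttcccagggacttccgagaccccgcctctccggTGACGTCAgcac

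Fasn, Cad and Mtor were 3 of the 12 genes of smallest p on the higher side, and the other 9 included Adgrg7, Cd300lf and Retnlg. Fasn, the fatty acid synthase, stood at 188, 188 and 145 CPM in RH MET and 123, 128 and 177 CPM in RH VEH. The WT libraries held 127, 119 and 131 CPM in WT MET and 169, 216 and 195 CPM in WT VEH. WT MET lay below WT VEH in every library, RH overlapped through RH VEH 3, and the interaction was 0.89 ± 0.253 (edgeR adjusted p = 0.648). Cad, which starts pyrimidine synthesis and is a target of mTOR signalling, stood at 420, 394 and 277 CPM in RH MET and 276, 216 and 310 CPM in RH VEH. In WT the level was 267, 191 and 246 CPM in WT MET and 327, 375 and 333 CPM in WT VEH (0.83 ± 0.25). Mtor stood at 65, 64 and 55.1 CPM in RH MET and 44, 41.6 and 61.5 CPM in RH VEH. WT levels were 43.6, 38.3 and 47.1 CPM in WT MET and 51.2, 65 and 63.3 CPM in WT VEH (0.81 ± 0.26). For these 3 genes the effect in RH was 0.28 ± 0.174, 0.35 ± 0.173 and 0.33 ± 0.18 and that in WT −0.62 ± 0.171, −0.48 ± 0.169 and −0.48 ± 0.177. Acaca, the acetyl-CoA carboxylase that AMPK phosphorylates, had 0.89 ± 0.314. Over the whole AMPK and mTOR list 19 of 30 members were higher and 11 lower, with a median of 0.16. At an unadjusted p under 0.05 there were 3, Mtor and Acaca among them, all higher (2.45% of all genes were higher at that threshold). None passed the adjusted threshold. Prkaa1, a catalytic subunit of AMPK, had 0.13 ± 0.179 and Rheb, an activator of mTOR, 0.05 ± 0.2. Cholesterol synthesis genes had 17 of 23 higher with a median of 0.20 (21 of 23 and 0.31 without RH VEH 2 and WT MET 2), among them Sqle, an epoxidase of that pathway (0.50 ± 0.209). Adgrg7, an adhesion G protein-coupled receptor, had the smallest p on the higher side and no overlap in RH, at 30.1, 31.4 and 26.3 CPM in RH MET and 9.64, 12.8 and 21 CPM in RH VEH. In wild-type cells it was 17.9, 11.7 and 20.1 CPM in WT MET and 14.8, 24.5 and 32 CPM in WT VEH (1.71 ± 0.46).

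**Figure D4:**
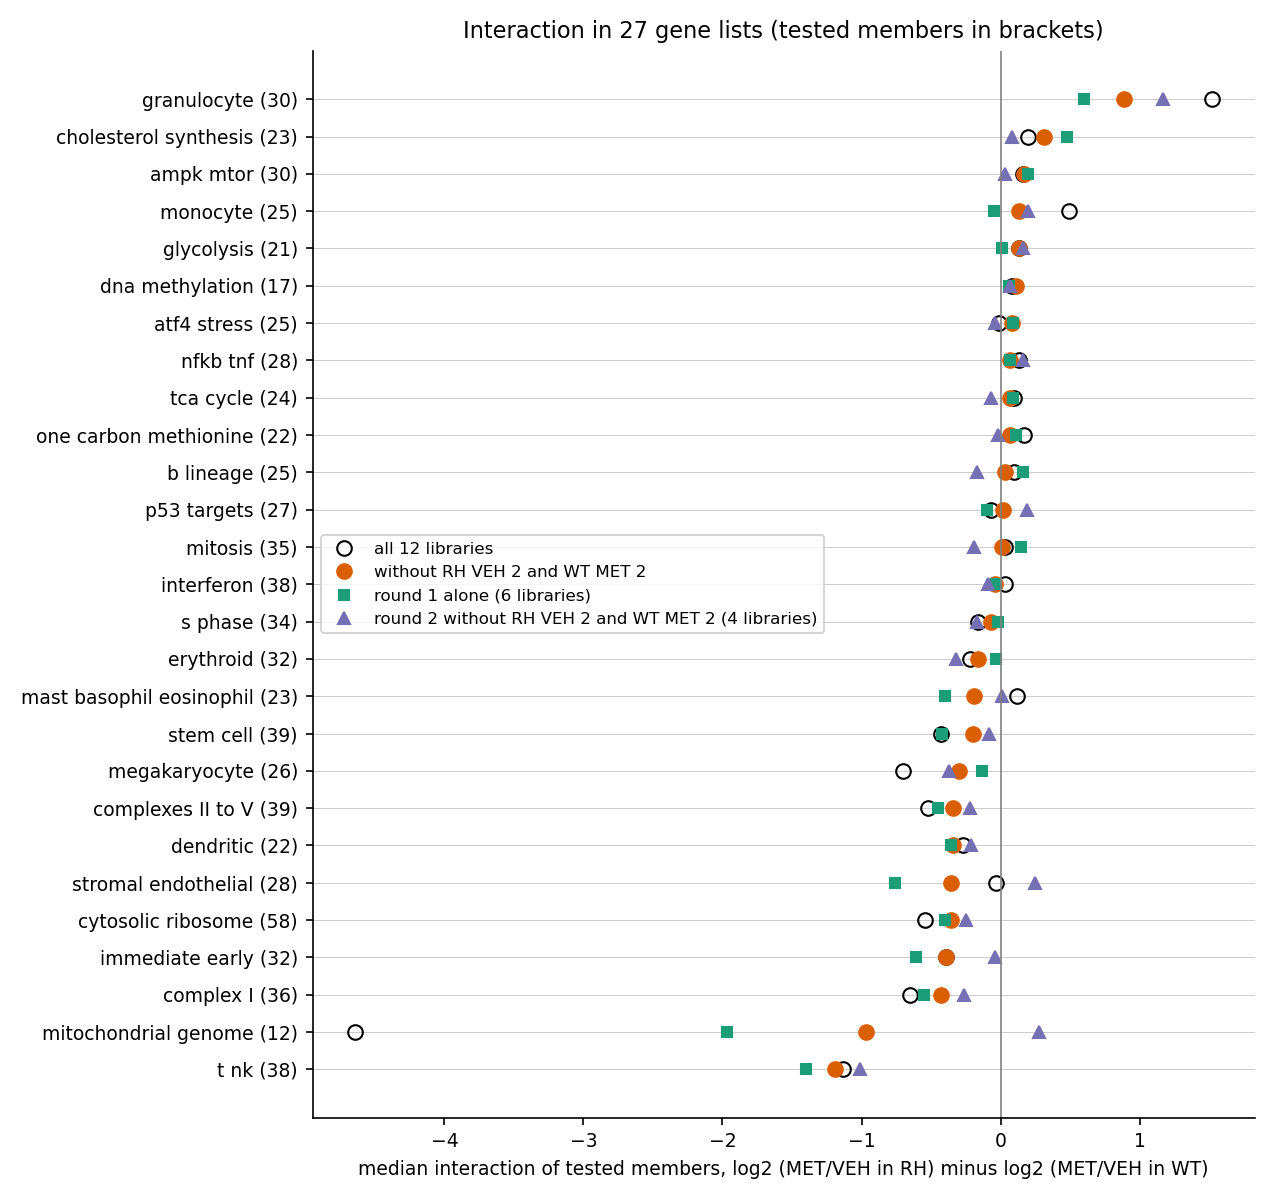
Median interaction (log2) of the tested members of 27 gene lists, in all 12 libraries (open circles), without RH VEH 2 and WT MET 2 (orange), in round 1 alone (green squares) and in round 2 without those 2 libraries (purple triangles). T and NK cell genes stayed between −1.40 and −1.01, while the mitochondrial genome ran between −4.64 and 0.28.

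Across the whole table, short genes had lower and long genes higher interactions. In the shortest of 5 equal length groups (38 to 1765 bases of merged exons, as the deposited table gives them) the median interaction was −0.33, and in the longest (6877 to 123179 bases) it was 0.19, with the groups between in order at −0.15, −0.05 and 0.05. The order was the same without RH VEH 2 and WT MET 2 (−0.20 to 0.18), in round 1 (−0.26 to 0.23) and in round 2 (−0.34 to 0.19), and Spearman's rho of length with interaction across genes was 0.26 with all libraries. Of the 565 genes lower at an unadjusted p under 0.05, 257 were in the shortest group, and of the 367 higher, 154 were in the longest. The median length of the complex I genes was 1635 bases and of the ribosomal genes 1923.5, against 3803 over all genes tested, while Fasn, Cad, Mtor and Acaca had 10947, 8183, 10109 and 17074. As a library measure, the median deviation of the longest group minus that of the shortest was 0.15, 0.14 and 0.08 (log2) in RH MET, −0.26, −0.29 and 0.28 in RH VEH, −0.10, −0.21 and −0.18 in WT MET and −0.30, 0.30 and 0.23 in WT VEH. RH VEH 3 and WT VEH 1 stood opposite to the other libraries of their groups, so the spread within both vehicle groups was as wide as the difference between groups. With a length trend removed within each library, an alternative chosen after seeing the data, the medians were −0.43 for complex I, −0.26 for complexes II to V, −0.30 for the cytosolic ribosome, −0.99 for T and NK cell genes, 1.70 for granulocyte genes and 0.00 for the AMPK and mTOR list, and Fasn, Cad, Mtor and Acaca had 0.68, 0.68, 0.62 and 0.61. The part of length in these results beyond that was not tested.

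**Figure D5:**
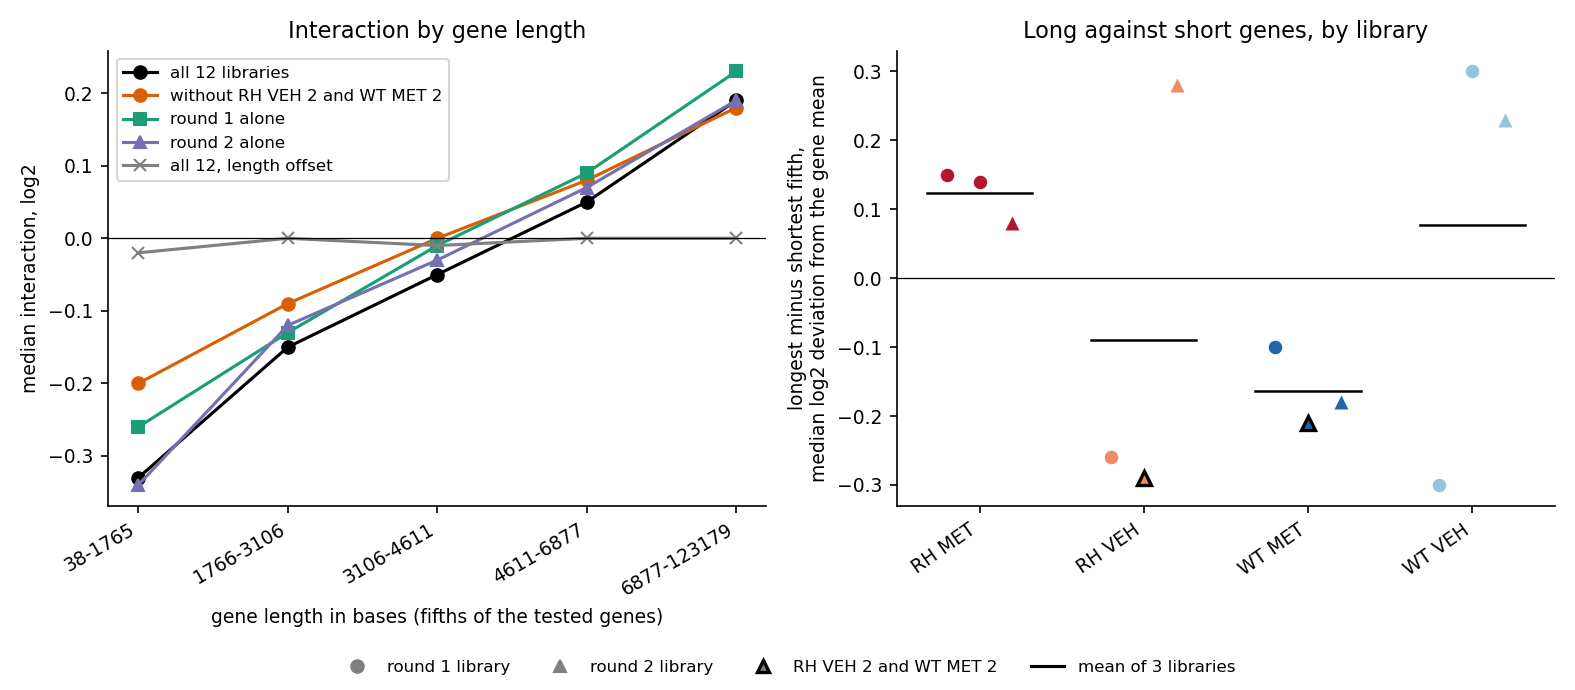
Left, the median interaction (log2) in 5 groups by gene length for all 12 libraries, without RH VEH 2 and WT MET 2, in each round and with the length trend removed; right, the long-minus-short measure (log2) of each library by group, with the mean of 3 libraries as a line. The interaction ran from −0.33 in the shortest to 0.19 in the longest group, and the RH VEH and WT VEH libraries each lay on both sides of 0.

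The number of genes called changed with the weights given to libraries. In limma's voom with sample weights 1946 genes passed (13%), of which 917 were higher (6.11%) and 1029 lower (6.86%), against 0 in voom with equal weights and 1, Gapdh, in the weighted fit without RH VEH 2 and WT MET 2. The weights were 2.65, 2 and 0.943 in RH MET and 2.93, 0.361 and 0.339 in RH VEH. WT weights were 2.92, 0.353 and 0.933 in WT MET and 0.396, 1.33 and 1.1 in WT VEH, so RH VEH rested on RH VEH 1 and WT MET on WT MET 1. All 1946 had the sign of the edgeR fit, with and without the 2 libraries, and 1858 had it in both rounds. These genes were chosen on the same libraries; over all genes tested, 83.1% kept their sign without the 2 libraries and 62.3% had the same sign in both rounds. The genes called higher had a median length of 7376 bases and those called lower of 1962. They held 22 T and NK cell genes, 18 complex I genes and 32 ribosomal protein genes, all lower, and no granulocyte gene. The same fit called 1700 genes in RH (11.3%). With no filter on low counts 431 of 27530 genes passed for the interaction (1.57%), 229 in RH (0.832%) and 218 in WT (0.792%). Round 1 alone gave 3 (0.02%) for the interaction and 2 (0.0133%) in RH. With the library number as a replicate block no gene passed and 13.1% had an unadjusted p under 0.05.

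Other lists stood nearer to the median of all genes or depended on the 2 libraries. Megakaryocyte genes had 24 of 26 lower with a median of −0.70, and −0.30 without them; Pf4, a platelet chemokine, stood at 175, 171 and 200 CPM in RH MET and 210, 444 and 174 CPM in RH VEH. In WT the level was 311, 553 and 207 CPM in WT MET and 155, 165 and 105 CPM in WT VEH (interaction −1.83 ± 0.642, and −1.0 ± 0.243 without the 2 libraries). Stem cell genes had 30 of 39 lower with a median of −0.43, and −0.20 without the 2 libraries. Monocyte genes had a median of 0.49, and 0.13 without them. S phase genes (27 of 34 lower, median −0.16), mitosis genes (0.03), p53 targets (−0.07), ATF4 stress genes (−0.01), interferon genes (0.03), TCA cycle genes (0.10) and erythroid genes (−0.22) lay closer to 0. Of 17 DNA methylation genes 10 were higher, with a median of 0.08; Dnmt1, the maintenance methyltransferase, had 0.53 ± 0.232 (edgeR adjusted p = 0.648), Dnmt3b 0.30 ± 0.277 and Tet2, a demethylating dioxygenase, 0.38 ± 0.328. No member of any of the lists passed the adjusted threshold.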

How the data were processed

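RNA sequencing of 12 mouse HSPC libraries was analysed. Read counts per gene, whole numbers for 54532 gene IDs, were deposited by the authors. The submitters' processing notes name HTSeq 0.6.1, STAR 2.5 and mm10 as build. The labels' protocols give 150-base paired reads. Gene lengths come from the deposited table. Some column numbers differ from the labels, so those columns were matched to their group only. A smaller table of 8 columns shares 6 with it, and its other 2 were not used.

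The counts were tested in R 4.3.3 with edgeR 4.0.16 (quasi-likelihood, robust, TMM, filterByExpr, 15003 genes), with a mean per group and a round term, at a Benjamini-Hochberg adjusted p under 0.05. SE is the absolute log2 value over the square root of F. DESeq2 1.42.0 and limma 3.58.1 were alternatives, and the code was tested on simulated data. Low genes are limited by counting error, since 1 CPM is 8.37 to 24.8 reads.

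Genes named had mean log2 CPM no lower than 1 and the same sign in each round and without RH VEH 2 and WT MET 2 (12 of smallest p per direction). Added were 2 per list, calls without those libraries, and the 5 per direction that they moved most. A few more list members were named after their values were seen. The members and the 29 lists were chosen with earlier results of these data known. Some genes are not reported here.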

Additional observations from a re-analysis of the deposited data

How the results depend on the processing

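The 2 libraries with a high mitochondrial share, the low number of libraries per group and low counts of T and NK cell genes limit these results. For the interaction, the count of called genes was 0 in the edgeR test and also with DESeq2, RLE factors, no mitochondrial genes, no round term, the mitochondrial share as a covariate, round 2 alone, the length offset and equal-weight voom. With the library number as a replicate block it was also 0, with 1961 genes at an unadjusted p under 0.05 against 932. The labels give the numbers no shared source, and they were not taken as pairs because not every same-numbered pair correlated above 0.1 (13 of 18 did, r −0.01 to 0.49). Of the 12 libraries, 10 correlated best with a library of their own number among the other groups, which is a hint from the data and not from the design. Every library numbered 1 is of round 1 and every library numbered 3 of round 2. The highest r among libraries numbered 2 (0.37) was that of WT MET 2 with RH VEH 2, both rich in mitochondrial reads. Number therefore runs in part with round and mitochondrial share. There were 431 calls with no filter (412 of them among the filtered genes and 31 on the mitochondrial genome), 1946 with sample-weighted voom, 3 in round 1 alone (mt-Rnr1, mt-Atp6, Gapdh) and 1 (Gapdh) without RH VEH 2 and WT MET 2, with the length offset without them and with weighted voom without them; leaving out 1 library gave 0 to 1, the 1 being Gapdh without RH VEH 2. The metformin effect in RH had 229 calls with no filter, 1700 with weighted voom, 2 in round 1 alone (mt-Atp6, Gapdh), 1 (Gapdh) in the 3 fits without both libraries and 0 to 1 with 1 library left out. That in WT had 218 with no filter and 1 (Rgs1) with DESeq2 and with weighted voom. The cause was not tested.

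Of 85 named genes, 11 changed sign in some setting. The 12 of smallest p per direction were named only if their sign held in each round and without RH VEH 2 and WT MET 2. Their sign was therefore fixed in those settings. Round 2 without the 2 libraries was not counted as a setting. There Cxcl12 was at 0.36 and mt-Nd3 at 0.05, against −0.86 and −4.41 with all 12 libraries. In that setting Kif20a was at −0.03, Bub1b at −0.19 and Ifih1 at −0.2, against 0.61, 0.48 and 0.48 with all 12. With the mitochondrial share as a covariate, the interaction was 0.12 for mt-Co2, 0.25 for mt-Nd4l, 0.99 for mt-Tl1, −2.36 for Col1a2, −2.14 for Col1a1, −1.45 for Col11a1, −0.05 for F13a1 and −0.21 for Flt3. Without RH VEH 2 and WT MET 2 it was 0.25 for mt-Tl1, −1.12 for Col1a2, −1.05 for Col1a1 and −0.42 for Col11a1; with the length offset in addition 0.46 for mt-Tl1, −1.29 for Col1a2, −1.12 for Col1a1, −0.62 for Col11a1, −0.01 for Flt3 and −0.05 for Kit; and in weighted voom without them 0.28 for mt-Tl1, −1.06 for Col1a2, −0.98 for Col1a1 and −0.09 for Col11a1. With all libraries, weighted voom gave −0.69 for Col1a2 and −0.70 for Col1a1, the length offset −0.14 for Col1a2 and −0.01 for Col1a1, DESeq2 −0.01 for Col1a2, and equal-weight voom 1.06 for Bglap and 1.28 for Bglap2. Round 1 alone gave −2.23 for Col1a2, −2.04 for Col1a1, −1.11 for Col11a1, −0.03 for Flt3 and −0.04 for Kit, and round 2 alone 1.56 for Bglap and 1.78 for Bglap2. With 1 library left out, the range was −1.11 to 0.94 for Col1a2, −1.16 to 1.26 for Col1a1, −0.46 to 1.85 for Col11a1, −2.49 to 0.11 for Bglap, −1.35 to 1.17 for Bglap2 and −0.01 to 0.52 for Kit. Across the alternatives, 72 list medians moved by at least 1 SD (pooled within groups, of the list's mean log2 CPM per library) and 710 by less. The length offset fits, equal-weight voom and weighted voom without both libraries were chosen after seeing the data.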

Other observations

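Col1a1 and Bglap, named because they moved most without RH VEH 2 and WT MET 2, stood highest in library 3 of each group, which is of round 2. Col1a1, a chain of type I collagen, stood at 33.4, 52.5 and 248 CPM in RH MET and 44.1, 16.5 and 298 CPM in RH VEH. In WT it was at 121, 18.2 and 306 CPM in WT MET and 48.4, 12.2 and 445 CPM in WT VEH. Its interaction was 0.04 ± 1.85 (log2, SE, n = 3 per group) with all 12 libraries, −1.05 ± 1.08 without RH VEH 2 and WT MET 2, −2.04 in round 1 and 2.12 in round 2. Bglap, which encodes osteocalcin, stood at 0.496, 0.539 and 12.1 CPM in RH MET and 3.28, 0 and 9.84 CPM in RH VEH. In WT it was at 3.3, 3.25 and 15.1 CPM in WT MET and 2.21, 0.341 and 11.4 CPM in WT VEH. The stromal and endothelial list had a median interaction of −0.03, and −0.36 without the 2 libraries, with −0.76 in round 1 and 0.96 in round 2. No gene of that list passed the threshold, and neither did Bglap.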
